A study of Mus musculus with 34 samples.

Results

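Deletion of Mta1 was examined in mouse embryonic stem (ES) cells by RNA-seq of 6 libraries out of the 34 of the series, 3 labelled Mta1_del/del and 3 labelled Mta1_flox/flox. All 6 were taken by genotype label, without use of any measured value. Both groups were ES cells of the 129/Ola strain, kept in 2i+LIF, a serum-free condition in which chemical blockade of the kinases Mek and Gsk3 together with LIF holds ES cells in a self-renewing state. According to the study's list of cell lines and its methods, the Mta1_flox/flox lines were derived from embryos that carried a conditional Mta1 allele. The list gives the Mta1_del/del lines as made from Mta1_flox/flox cells with Cre recombinase, so the parent is not a wild type. The study's main text instead describes Mta1-null ES cell lines as derived from mice, after crosses to a Sox2-Cre line. Below, the parent library is the Mta1_flox/flox library of the same number, without knowledge of direct descent. The Mta1_flox/flox genotype carries loxP sites around exon 2 on both alleles. The list holds several lines of each genotype, and which line each library came from is not given in the sources used here. Each pair of libraries with the same number was treated as a pair, for the reasons given below. The other libraries serve only for comparison of spread, of MTA gene levels and of Zscan4c.

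Mta1 encodes a metastasis-associated (MTA) protein, a core subunit of the nucleosome remodelling and deacetylation complex NuRD. MTA proteins form a scaffold that binds the histone deacetylases Hdac1 and Hdac2 and the histone chaperones Rbbp4 and Rbbp7, and MBD proteins link this part of NuRD to a remodelling part built around a Chd helicase. Mouse cells have a small family of MTA genes, Mta1, Mta2 and Mta3, and in ES cells NuRD tunes genes of pluripotency and of lineage commitment.

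The deletion removes exon 2 of Mta1 (ENSMUSG00000021144, chromosome 12, 113098278 to 113137206 on the plus strand of GRCm38). Exon 2 spans chr12:113112146-113112213 and lies wholly within the coding sequence. Its 68 bases are not a multiple of 3, which leaves 2 bases over. The sequence is shown because it is what Cre removes. The counts are summed over the whole gene and cannot show whether reads of exon 2 were absent. Exon 2 is in capitals, between 24 coding bases of exon 1 and 24 of exon 3, as spliced in the GENCODE vM21 transcript Mta1-201:
Mta1 exon 2 with flanks: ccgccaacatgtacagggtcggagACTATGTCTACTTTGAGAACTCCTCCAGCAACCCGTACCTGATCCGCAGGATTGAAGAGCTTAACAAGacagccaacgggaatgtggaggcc
Joining exon 1 to exon 3 in the same transcript gives a reading frame that ends after 46 codons in place of 715, with the stop codon, in exon 4, in capitals:
Mta1 frame without exon 2: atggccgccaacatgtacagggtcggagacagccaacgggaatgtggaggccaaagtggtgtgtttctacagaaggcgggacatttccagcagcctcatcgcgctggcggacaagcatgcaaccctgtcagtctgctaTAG
In all 5 annotated coding transcripts the frame without exon 2 ended after 46 or 56 codons. Exon 2 makes up 2.41% of Mta1-201, and the other 20 exons of this transcript can still be counted as Mta1 reads.

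The libraries were sequenced to between 13105820 counts (Mta1_flox/flox 2) and 25664864 counts (Mta1_del/del 3). Counts were scaled to library size as CPM with trimmed-mean normalization factors, which ranged from 0.966 to 1.03. Of 22018 genes listed, 14561 had enough counts to be tested. ES cell identity was plain in all 6 libraries, with Nanog at 930 to 1317 CPM, Esrrb at 845 to 1182 CPM and Pou5f1 at 523 to 793 CPM. Fibroblast markers, which would show residual feeder cells, summed to 20.9 to 58.5 CPM over 8 tested genes, and Pdgfrb, the highest of them, reached 40.4 CPM in Mta1_flox/flox 2.

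Libraries of the same number resembled each other more than libraries of the same genotype. Deviations from the genotype means were correlated across 14561 genes. Between the Mta1_del/del and Mta1_flox/flox libraries of numbers 1, 2 and 3, r was 0.61, 0.43 and 0.70. Between libraries of different numbers it was -0.13 to -0.45. Such deviations cancel within each genotype, so positive values for the same numbers make those for different numbers negative on average. Genes are not independent replicates, so no p is given. The distance between libraries, as the root mean square of their log2 CPM differences, was 0.45, 0.67 and 0.34 within pairs 1, 2 and 3, against 0.64 to 0.74 among the Mta1_del/del libraries and 0.81 to 0.88 among the Mta1_flox/flox libraries. The replicate number therefore entered the model as a block. Pair 2 was the exception to the pattern, since Mta1_del/del 2 lay closer to Mta1_del/del 3 and to Mta1_flox/flox 3 than to its own parent library.

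Part of what the pairs shared was the level of whole chromosomes. Genes of chromosomes 6, 8 and 14 stood higher in both libraries of number 3 than in the other 4, by medians of 0.39, 0.41 and 0.44 on the log2 CPM scale, and 77.5% to 83.6% of the tested genes of each chromosome shared this direction. Because both members of pair 3 were high, the paired difference for these chromosomes was near 0. Chromosome 11 did not follow the pairs. Its 1201 tested genes stood higher by a median of 0.45, a factor of 1.36, in Mta1_flox/flox 3, Mta1_del/del 3 and Mta1_del/del 2 than in Mta1_flox/flox 1, Mta1_flox/flox 2 and Mta1_del/del 1. Within pair 2 the median chromosome 11 gene was thus 0.46 higher in the deleted library, while it differed by -0.00 in pair 1 and 0.00 in pair 3. In the paired fit 971 of the 1201 genes (80.9%) had a positive log2 fold change. Whether the DNA copy number of these chromosomes differed between lines was not tested.

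**Figure D1:**
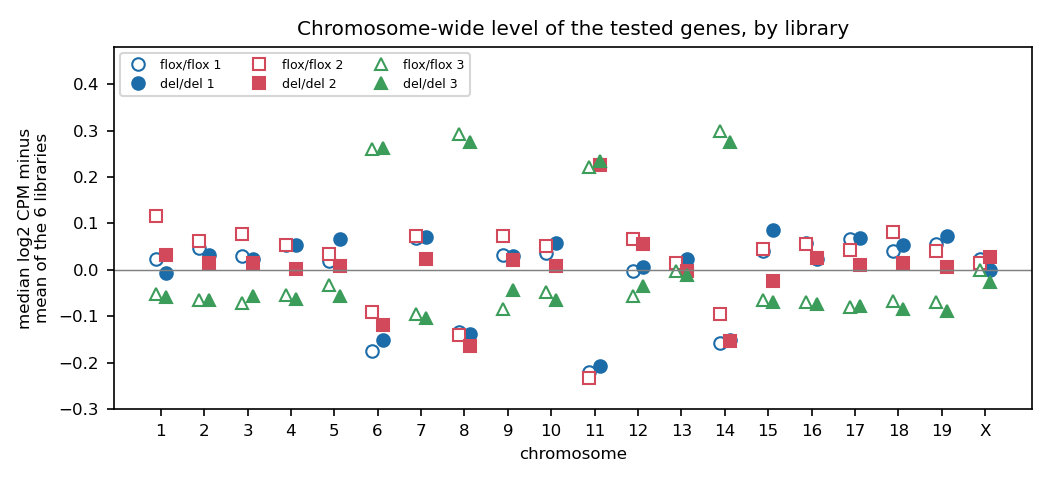
Median log2 CPM of the tested genes of each chromosome in each library, as the difference from the mean of the 6 libraries; open symbols are Mta1_flox/flox, filled symbols Mta1_del/del, and colour and shape give the replicate number. Both libraries of number 3 stand apart on chromosomes 6, 8 and 14, and on chromosome 11 Mta1_del/del 2 joins them while Mta1_flox/flox 2 does not.

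Genes of the Y chromosome split pair 1. The RNA helicase gene Ddx3y was counted at 45.6, 131 and 0.125 CPM in Mta1_flox/flox 1, 2 and 3 and at 0.207, 95.6 and 0.340 CPM in Mta1_del/del 1, 2 and 3. The translation factor gene Eif2s3y followed the same pattern, at 38.4, 107 and 0.250 CPM in the parent and 0.0830, 83.9 and 0.0377 CPM after deletion. The histone demethylase gene Uty was at 32.3, 70.2 and 2.67 CPM in the parent and 3.07, 57.3 and 2.83 CPM after deletion. Both libraries of number 2 thus had Y-linked RNA and both of number 3 had next to none, whereas in pair 1 the parent library had it and the deleted library did not. The zinc finger genes Zfy1 and Zfy2 were also near 0 in Mta1_del/del 1 and in both libraries of number 3, and stood higher in Mta1_del/del 2 (16.97 and 8.13 CPM) than in Mta1_flox/flox 2 (4.06 and 2.07 CPM). Kdm5d, a further demethylase gene of the list, lay between 11.4 and 21.8 CPM in all 6 libraries. Since Mta1_del/del 1 differs from its parent library in this respect and pair 2 differs on chromosome 11, the main results are also given without each pair.

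Mta1 RNA persisted in the deleted cells, while the study reports no detectable protein from the deleted allele. The RNA was counted at 105, 72.6 and 81.1 CPM in Mta1_flox/flox 1, 2 and 3 and at 47.9, 44.4 and 39.5 CPM in Mta1_del/del 1, 2 and 3. Every deleted library lay below every parent library, and the deleted libraries differed little among themselves (43.9 ± 4.24, SD, n = 3) compared with their parents (86.2 ± 16.7, SD, n = 3). Within pairs, the deleted library kept 45.7%, 61.1% and 48.6% of the parent's level. The paired edgeR fit put the log2 fold change at -0.96 (standard error 0.12, 95% interval -1.25 to -0.67), that is, 51.4% of the parent's level with an interval of 42.1% to 62.7%.

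The reduction held its direction in all 3 pairs but did not pass the test across all genes. Among 14561 genes tested, Mta1 had the 3rd smallest unadjusted p (2.38e-04), and its Benjamini-Hochberg adjusted p in edgeR's quasi-likelihood test was 0.923. In an exact two-sided permutation test of the 6 values of log2 CPM, which does not use the pairs, p was 0.1, the smallest that 3 against 3 libraries can give. Without pair 1, 2 or 3 the log2 fold change was -0.88, -1.08 and -0.92, so its size was similar without the pair that differed in Y-linked genes and without the pair that differed on chromosome 11. DESeq2 with the same block gave -0.96 with an adjusted p of 2.45e-06, past the adjusted p threshold of 0.05 but short of the absolute log2 fold change of 1 that the study also required. In the other alternatives, all run in edgeR, its adjusted p ran from 0.0593, in 1 fit of all 18 single-mutant libraries, to 1.

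Mta1 levels in the other single-mutant libraries give a scale for this residue. Each series was normalized on its own, so levels are set side by side without a test. Mta1 stood at 82.6 ± 2.87 CPM in Mta3_del/del and 81.2 ± 5.23 CPM in Mta3_flox/flox (SD, n = 3 each), close to the Mta1_flox/flox parent. In Mta2_WT it stood at 21.4 ± 3.79 CPM and in Mta2_KO at 34.6 ± 2.80 CPM (SD, n = 3 each), both below the level left in Mta1_del/del. The targeted gene itself was left at a mean of 9.94 CPM against 226 CPM in Mta2_KO and Mta2_WT, and at 11.3 CPM against 70.2 CPM in Mta3_del/del and Mta3_flox/flox. The alleles take out different parts of the genes, several exons in a row in Mta2 and only exon 2 in Mta1, so these residues are not like for like.

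Neither paralogue had a higher mean level after the deletion of Mta1. Mta2, the MTA gene with the highest level here, was counted at 275, 281 and 248 CPM in Mta1_flox/flox 1, 2 and 3 and at 290, 236 and 225 CPM in Mta1_del/del 1, 2 and 3. The groups overlapped, with the deleted library higher in pair 1 and lower in pairs 2 and 3. Its log2 fold change was -0.10 (standard error 0.10, 95% interval -0.35 to 0.14; adjusted p = 0.981, edgeR). For Mta3 the parent libraries held 100.3, 96.7 and 66.8 CPM, against 98.9, 81.9 and 61.9 CPM after deletion. The deleted library was lower in each pair by a margin much smaller than the spread between numbers, and the groups overlapped. Its log2 fold change was -0.12 (standard error 0.09, 95% interval -0.35 to 0.10; adjusted p = 0.981, edgeR).

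These intervals set the size of paralogue response that the 6 libraries could have shown. Their upper ends correspond to 110% of the parent's level for Mta2 and 107% for Mta3, and their lower ends to 78.4% and 78.5%. The exact permutation test of log2 CPM gave p = 0.5 for Mta2 and p = 0.6 for Mta3, but it sets the genotypes against the whole spread between numbers and does not use the pairs. Leaving out a pair moved Mta2 between -0.19 and -0.03 and Mta3 between -0.18 and -0.07.

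**Figure D2:**
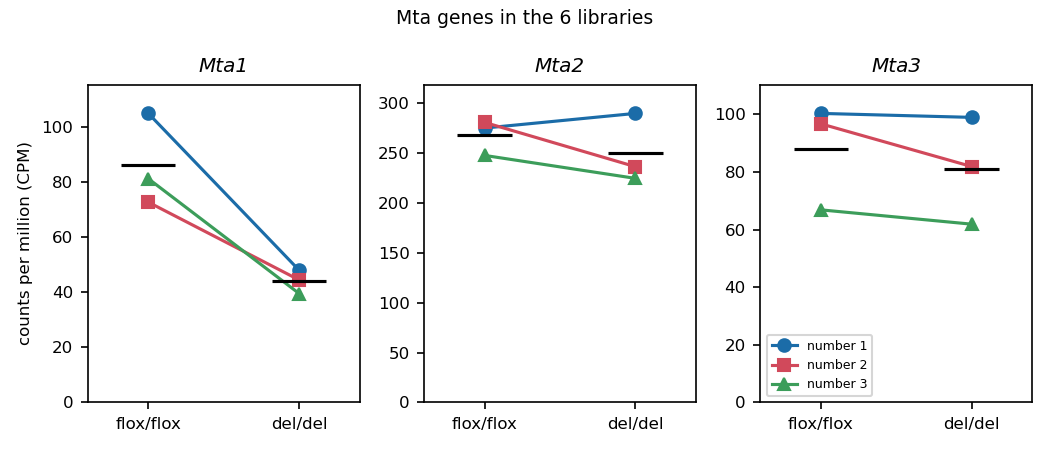
CPM of Mta1, Mta2 and Mta3 in the 6 libraries, with a line joining the libraries of each replicate number and a black bar at each group mean. All lines for Mta1 slope down and the groups do not overlap, from 105 to 72.6 CPM in the parent and from 47.9 to 39.5 CPM after deletion, while the groups overlap for Mta2 and Mta3.

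Set against gene length, Mta1 made up a smaller part of the family's RNA after deletion. Per kilobase of annotated exon, Mta1 stood at 27.8 ± 5.37 CPM in the parent and 14.2 ± 1.37 CPM after deletion (SD, n = 3 each). Mta2 stood at 65.4 ± 4.32 and 61.1 ± 8.48 CPM per kilobase, and Mta3 at 16.5 ± 3.46 and 15.2 ± 3.49 CPM per kilobase. The order of these levels per kilobase in the parent was Mta2, then Mta1, then Mta3, without overlap between any of them. The order of Mta1 and Mta3 rests on the exon lengths used, 3.104 kilobases for Mta1 and 5.319 for Mta3, since their undivided CPM overlapped in the parent. All annotated exons of Mta3 were counted in its length, whereas the study's methods describe a short isoform as the main one in ES cells, so its level per kilobase may be too low here. After deletion Mta2 still led, and Mta1 (12.7 to 15.4) and Mta3 (11.6 to 18.6) overlapped. Mta1 supplied 28.2%, 21.2% and 26.4% of the summed MTA level per kilobase in parent libraries 1, 2 and 3, and 14.7%, 16.4% and 16.1% after deletion. The summed level lay within overlapping ranges, 99.2 to 119.8 CPM per kilobase in the parent and 79.2 to 104.8 after deletion, and was lower in each pair.

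The genes of the other NuRD subunits differed little between the genotypes. In the deacetylase part, Hdac1 and Hdac2, the catalytic deacetylases, had log2 fold changes of 0.07 (95% interval -0.18 to 0.31) and -0.01 (-0.29 to 0.26). The histone-binding Rbbp4 and Rbbp7 stood at -0.05 (-0.27 to 0.17) and -0.01 (-0.22 to 0.20). The zinc finger factors Sall1 and Sall4, which bind NuRD in ES cells, stood at -0.02 (-0.26 to 0.22) and -0.08 (-0.39 to 0.23). None of these 6 genes separated the genotypes or kept 1 direction in all 3 pairs, and all 6 intervals lay within 1 log2 unit of 0.

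Loss of the bridging gene Mbd3 depletes NuRD in ES cells without removing it completely, according to the study. Here Mbd3 was at 38.2, 23.6 and 35.6 CPM in the parent and 42.2, 28.5 and 30.0 CPM after deletion. Its log2 fold change was 0.05 (95% interval -0.29 to 0.40). Mbd2, which takes the place of Mbd3 in a separate form of the complex, stood at 11.7 to 26.7 CPM with a log2 fold change of -0.13 (-0.64 to 0.37). For both, the direction differed between pairs.

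In the remodelling part, Chd4, the main helicase of NuRD, had a log2 fold change of -0.02 (95% interval -0.28 to 0.24) at 663 to 835 CPM. The linker subunits Gatad2a and Gatad2b stood at 0.04 (-0.20 to 0.27) and -0.04 (-0.29 to 0.20), Cdk2ap1 at 0.27 (-0.08 to 0.62) and the little expressed helicase gene Chd5 at -0.09 (-0.74 to 0.56). The alternative helicase gene Chd3 had the widest interval of the 17 subunit genes named here. It was counted at 44.3, 29.0 and 54.6 CPM in the parent and 66.8, 73.0 and 44.3 CPM after deletion, higher in pairs 1 and 2 and lower in pair 3. Its log2 fold change was 0.53 (-0.20 to 1.26), it lies on chromosome 11, and it stood at 0.14 without pair 2 and at 0.37 once the chromosome medians were taken as offsets. Per kilobase, Chd4 (91.9 CPM in the parent, 90.4 after deletion) exceeded Chd3 (5.05 and 7.27) and Chd5 (0.604 and 0.556) in both genotypes.

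**Figure D3:**
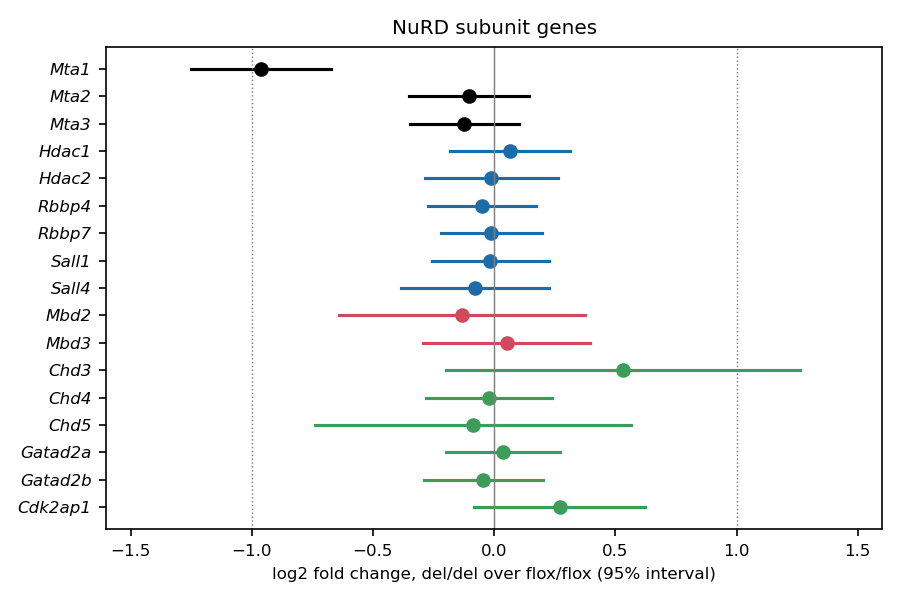
Log2 fold change of each NuRD subunit gene, Mta1_del/del over Mta1_flox/flox, with its 95% interval; MTA genes are black, deacetylase genes blue, MBD genes red and remodelling genes green, and dotted lines mark 1 log2 unit. The interval of Mta1 alone excludes 0, and that of Chd3 alone among the others reaches past 1.

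A list of 12 NuRD-associated genes behaved likewise, with 5 lower and 7 higher, a median log2 fold change of 0.01 and no member at an unadjusted p under 0.05. Its most highly counted members were Wdr5 (-0.17, 95% interval -0.40 to 0.07), the demethylase gene Kdm1a (0.06, -0.15 to 0.27) and Zmynd8 (-0.11, -0.33 to 0.11).

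Across all genes, 0 of 14561 (0%) passed an adjusted p under 0.05 with an absolute log2 fold change above 1 in edgeR, and the smallest adjusted p was 0.923. At an unadjusted p under 0.05 there were 270 genes lower (1.85%) and 198 higher (1.36%), 468 in all. Some genes pass this unadjusted threshold even where none differs, so the 468 are not a count of changed genes. DESeq2 with the same block called 29 genes, 28 lower and 1 higher. In each of the 3 pairs 1775 genes (12.2%) were lower in the deleted library and 1665 (11.4%) were higher. The genotype groups did not overlap for 351 of the 14561 genes, and 7290 of them had a negative log2 fold change. These shares and counts are the background for the genes and gene lists given below.

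The Mta1 libraries of either genotype varied more among themselves than those of the other single-mutant series. The biological coefficient of variation, the typical relative spread between libraries beyond counting error, was 0.273 among the Mta1_del/del libraries and 0.326 among the Mta1_flox/flox libraries. In the paired fit it was 0.183, and without the block 0.331, at which 50 genes had an unadjusted p under 0.05 and again 0 were called. In the Mta2 series it was 0.0821 among Mta2_KO and 0.136 among Mta2_WT libraries, and in the Mta3 series 0.203 and 0.199 among Mta3_del/del and Mta3_flox/flox libraries. With the block, it was 0.102 in the Mta2 series and 0.186 in the Mta3 series, and the median half-width of the 95% interval was 0.22 and 0.42 on the log2 scale, against 0.40 here. The paired spread was thus much the same in the Mta1 and Mta3 series. The same test called 1751 genes in the Mta2 series and 981 in the Mta3 series; whether the number of genes that respond differs between the deletions was not tested. The numbers did not pair the libraries of those other series in the same way, since same-numbered deviations correlated at -0.18 to 0.31 and at -0.13 to 0.34.

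For the typical tested gene, the 95% interval reached 0.40 log2 units to either side of its estimate, a factor of 1.32. It was 1.06 for genes under 1 CPM, 0.77 for genes of 1 to 5 CPM, 0.48 for genes of 5 to 20 CPM, 0.30 for genes of 20 to 100 CPM and 0.25 for genes above 100 CPM. For 11334 genes (77.8%) the whole interval lay within 1 log2 unit of 0. A change of more than 2-fold in either direction was thus outside the interval for 96.7% of genes at 20 to 100 CPM and 99.0% above 100 CPM, but only for 9.08% of genes under 1 CPM.

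**Figure D4:**
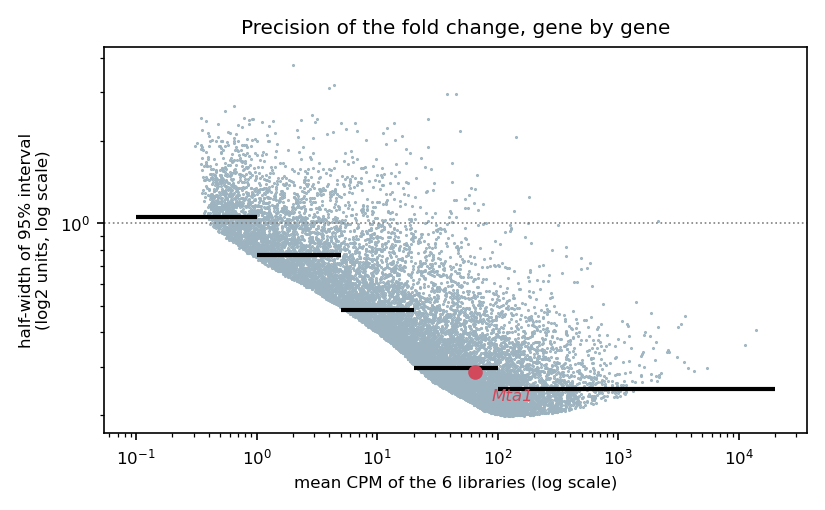
Half-width of the 95% interval of the log2 fold change against mean CPM for 14561 genes, both on log scales; black bars are medians over ranges of CPM, the dotted line marks 1 log2 unit and Mta1 is in red. The median falls from 1.06 under 1 CPM to 0.25 above 100 CPM.

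Genes of the 2-cell stage stood out by their uniform direction. These genes, among them the zinc finger gene Zscan4c, the Tcstv and Usp17l families and the transcription factor gene Duxf3, mark the 2-cell embryo and a small, changing fraction of cells in ES cultures. All 12 tested members of the list were lower in Mta1_del/del, with a median log2 fold change of -1.997 against -0.00 for all genes. Of these, 11 were lower in every pair (91.7%, against 12.2% of all genes) and 11 had an unadjusted p under 0.05 (against 1.85%). None passed the adjusted threshold in edgeR, while DESeq2 called 6. Every member shares sequence with other genes, from 15.0% of its stretches of 50 bases for Tcstv1 to 86.8% for Zscan4f. The members are therefore not independent, and these counts are not counts of separate measurements.

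The level of these genes differed far more between replicate numbers than between genotypes. Zscan4c was counted at 1.19, 239 and 13.8 CPM in Mta1_flox/flox 1, 2 and 3 and at 0.166, 41.4 and 4.64 CPM in Mta1_del/del 1, 2 and 3. The libraries of number 2 were highest in both genotypes and those of number 1 lowest, so the groups overlapped although each deleted library lay below its own parent. Its log2 fold change was -2.15 (standard error 0.24, 95% interval -2.75 to -1.56; adjusted p = 0.923, edgeR), with the smallest unadjusted p of all genes, 1.66e-04. In the other single-mutant series, each fitted on its own, Zscan4c was lower too. There its log2 fold change was -4.324 (95% interval -4.491 to -4.158) in Mta2_KO over Mta2_WT. In Mta3_del/del over Mta3_flox/flox it was -3.451 (-4.967 to -1.935). The triple mutant did not share this in 2iL, where Zscan4c averaged 29.2 CPM (SD 25.0) in Mta123KO and 23.3 CPM (SD 10.9) in the control. In libraries labelled 48h the means were 2.56 CPM in Mta123KO and 8.41 CPM in the control (n = 4 libraries in each group, not tested here). Summed over the list in the Mta1 series, the 9.52, 1060 and 64.3 CPM of the parent libraries stood against 4.60, 174 and 28.8 CPM. The deleted libraries thus held 48.4%, 16.4% and 44.8% of their parents' level. Whether fewer cells were in this state or each such cell held less RNA cannot be told apart in bulk libraries.

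Pair 2 weighed most in this difference. Without it the list median was -1.31, and 6 of the 10 members that still passed the filter had an unadjusted p under 0.05. Without pair 1 the median was -1.95 and without pair 3 it was -2.38. Usp17la, at 2.00, 47.7 and 3.21 CPM in the parent and 2.20, 7.37 and 2.68 CPM after deletion, was the member that was not lower in every pair, and without pair 2 its log2 fold change was -0.07. Gm8300, the third most highly counted of the list, stood at 1.57, 174 and 10.6 CPM in the parent and 0.788, 27.3 and 5.47 CPM after deletion (log2 fold change -1.72, 95% interval -2.66 to -0.78).

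**Figure D5:**
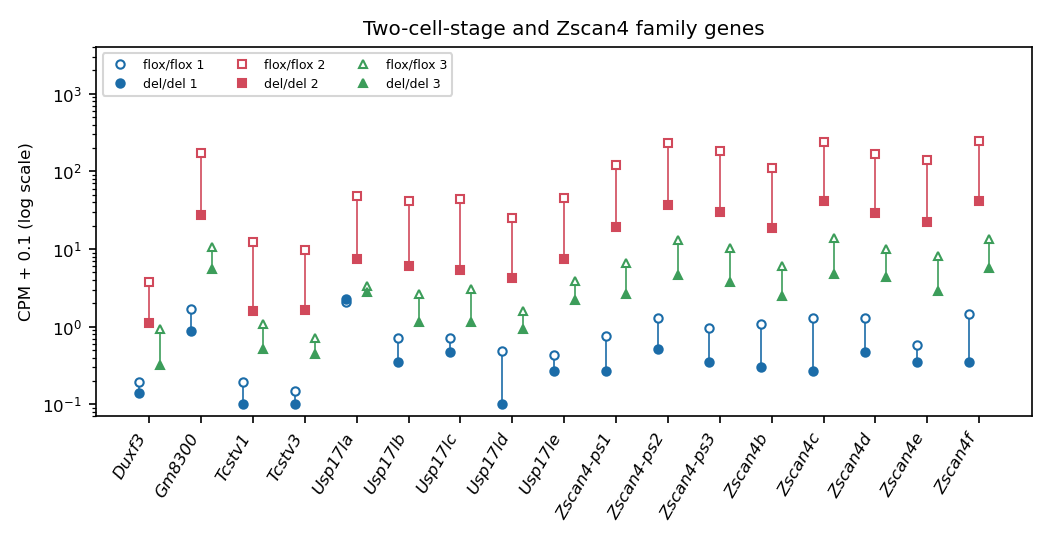
CPM (plus 0.1, log scale) of the 2-cell-stage list and the Zscan4 family in each library; open symbols are Mta1_flox/flox, filled symbols Mta1_del/del, colour and shape give the replicate number, and lines join pairs. The deleted library lies below its parent in every pair of every gene except pair 1 of Usp17la, and number 2 is highest throughout.

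Most members of the Zscan4 family cannot be counted apart with confidence. All 8 tested copies were lower in every pair, with log2 fold changes between -1.90 and -2.15 (median -2.06, and -1.54 without pair 2), and all 8 had an unadjusted p under 0.05. Of the stretches of 50 bases in annotated transcripts of Zscan4c, 85.5% also occur in a transcript of another gene, and for Zscan4f, counted at 0.249 to 248 CPM, the share is 86.8%. It is lower for Zscan4d (49.6%) and Zscan4-ps1 (48.4%). By contrast the share is 0% for Mta1 and Mta2 and 0.0728% for Mta3. The first 90 coding bases are shown to make the likeness visible, a stretch chosen because it is alike in most copies. They are identical in Zscan4b, Zscan4c, Zscan4e, Zscan4f, Zscan4-ps1, Zscan4-ps2 and Zscan4-ps3, and Zscan4d differs at 3 bases, in capitals:
Zscan4c: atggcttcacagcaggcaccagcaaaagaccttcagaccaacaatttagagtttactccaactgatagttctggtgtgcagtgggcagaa
Zscan4d: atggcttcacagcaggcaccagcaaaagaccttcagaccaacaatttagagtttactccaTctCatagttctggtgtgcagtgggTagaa
Over their 1518 coding bases, Zscan4f shares 99.6% and Zscan4d 97.7% of positions with Zscan4c. Zscan4b and Zscan4e, of 1515 coding bases, share 78.1% and 78.3%, compared position by position from the start without alignment. The family is therefore best read as 1 measurement rather than 8.

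Of the 10 genes with the smallest p among those lower in every pair, Mta1 and 6 members of the Zscan4 family (Zscan4b, Zscan4c, Zscan4f, Zscan4-ps1, Zscan4-ps2 and Zscan4-ps3) made up 7. The rest were the predicted genes Gm13119, Gm12794 and Gm12800, whose log2 fold changes were -2.41, -2.15 and -2.52. These also share 38.6% to 47.3% of their stretches of 50 bases with other genes, and were highest in Mta1_flox/flox 2, at 26.8 to 34.7 CPM. Mta1 was the only one of the 10 whose genotype groups did not overlap, which held for 351 of all 14561 genes in either direction. Among the genes called by DESeq2, 8 belonged to the Zscan4 family and 3 more to the 2-cell-stage list (Gm8300, Usp17lb and Usp17lc). This left 17 other genes lower and the Hedgehog target Gli1 higher. The 17 include Gm13119, Gm12794, Gm12800, Gm21312 and Gm4340, each highest in Mta1_flox/flox 2. These share 38.6% to 100% of their stretches of 50 bases with other genes, so the 17 are not independent changes.

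The 10 genes with the largest spread between numbers, among those above 5 CPM, were of the same kinds. They were Ddx3y, Eif2s3y, Zscan4c, Zscan4e, Zscan4f, Zscan4-ps1, Zscan4-ps2, Zscan4-ps3, Gm21312 and Gm4340, the last pair with at least 98.9% of their stretches of 50 bases shared. For Eif2s3y and Ddx3y the 95% interval of the log2 fold change ran from -5.61 to 0.28 and from -5.27 to 0.62, so no difference in these genes could be measured across the 3 pairs.

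Higher in every pair, with the smallest p in that direction, was Socs3, the feedback inhibitor that LIF induces through Stat3. It was counted at 63.1, 63.3 and 70.0 CPM in the parent and 93.2, 93.0 and 135 CPM after deletion. The groups did not overlap, and the log2 fold change was 0.69 (standard error 0.11, 95% interval 0.41 to 0.97; adjusted p = 0.981, edgeR). It was 0.75, 0.75 and 0.56 without pairs 1, 2 and 3. Socs3 lies on chromosome 11 and stood at 0.53 with the chromosome medians as offsets.

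The other 9 genes chosen by the same rule were Gli1, Anxa6, Hydin, Calb2, Nefl, Aspg, Alox12, the histone gene Hist1h2bp and ENSMUSG00000064168, which has no symbol in the annotation used. Gli1 was at 9.19, 2.91 and 9.84 CPM in the parent and 23.4, 15.2 and 17.3 CPM after deletion, with a log2 fold change of 1.46 (95% interval 0.71 to 2.21) and no overlap between groups. Anxa6, which encodes a calcium-dependent membrane-binding protein, reached at most 79.1 CPM in the parent and stood at 75.8, 95.7 and 98.3 CPM after deletion, so that its groups overlapped at 1 library. Its log2 fold change of 0.47 was 0.31 with the chromosome offsets, since it too lies on chromosome 11. The remaining genes had log2 fold changes from 0.39 (Hist1h2bp) to 1.24 (Aspg), and none passed the adjusted threshold in edgeR. Among them the groups did not overlap for Aspg and Alox12. Alox12 lies on chromosome 11, and its log2 fold change of 0.77 was 0.61 with the chromosome offsets.

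The histone genes formed the most uniform group in the upward direction. Of 66 tested genes 65 were higher in Mta1_del/del, the exception being Hist3h2a at 0.498 to 1.58 CPM, and the median log2 fold change was 0.27. In every pair 57 were higher (86.4%, against 11.4% of all genes), and 41 had an unadjusted p under 0.05 (62.1%, against 1.36% of all genes); none was called. Their summed level was 11955, 8702 and 14667 CPM in the parent and 13796, 11186 and 16783 CPM after deletion, so the groups overlapped while each deleted library was above its own parent. Without pair 2 the median was 0.21, and with chromosome offsets 0.28. Hist1h1a, Hist1h4d and Hist1h2bf, the most highly counted, had log2 fold changes of 0.23, 0.14 and 0.43. Histone copies share sequence too, 65.8% of the stretches of 50 bases of Hist1h2bf occurring in other genes against 0% for Hist1h1a, so the members are not independent.

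Among pluripotency genes, 11 of 15 naive genes and 7 of 10 general genes were lower. The naive list had a median log2 fold change of -0.23. In it 6 members were lower in every pair (40%, against 12.2% of all genes) and 4 lower ones had an unadjusted p under 0.05 (against 1.85%). The most highly counted naive members were Tfcp2l1 (0.06, 95% interval -0.40 to 0.53), Nanog (-0.01, -0.25 to 0.23) and Esrrb (-0.04, -0.32 to 0.24). Without pair 2 the median of the naive list was -0.09. In the general list the median was -0.15 (-0.08 without pair 2), and Pou5f1, Cdh1 and Tdgf1 stood at -0.23, -0.18 and -0.10. The LIF and Stat3 list, which holds Socs3, had 8 of 10 genes higher and a median of 0.04. Of its members 2 higher ones had an unadjusted p under 0.05 (against 1.36% of all genes). In it Sgk1, Il6st and Stat3 stood at -0.23, 0.04 and 0.28. Stat3, like Socs3, lies on chromosome 11 and stood at 0.12 with the chromosome medians as offsets.

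Markers of later states and other lineages gave no uniform direction. The formative and primed list had 8 of 12 tested genes lower (median -0.20, but -0.05 without pair 3), with Lefty2 between 20.2 and 236 CPM and a 95% interval of -2.23 to 1.91. Dnmt3b and Nodal in the same list stood at 0.15 and -0.21. Primitive endoderm genes were lower for 8 of 12 (median -0.10, but 0.16 without pair 2), with Lama1, Lamb1 and Col4a1 at -0.45, -0.16 and 0.03. Trophoblast genes were lower for 10 of 12 (median -0.26, but 0.16 without pair 2), with Tfap2c, Krt8 and Eomes at 0.41, -0.22 and -0.31. Mesendoderm genes were lower for 2 of 5 (median 0.03, but -0.18 without pair 3), with T, Gsc and Tbx6 at -0.42, 0.03 and 0.05. Neural genes were lower for 4 of 7 (median -0.10, but 0.10 without pair 3), with Tubb3, Nes and Cdh2 at 0.42, 0.03 and -0.10. Fibroblast genes were lower for 2 of 8 (median 0.15, but -0.10 without pair 1), with Pdgfrb, Acta2 and Fbn1 at -0.23, 0.19 and 0.22. Over these 6 lists 2 lower genes and 1 higher gene had an unadjusted p under 0.05.

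Germline genes, some of which NuRD and DNA methylation are known to silence, were lower for 9 of 12 (median -0.21, but 0.10 without pair 2), with Dazl, Hormad1 and Stk31 at -0.26, 0.40 and 0.26. DNA methylation genes were lower for 3 of 9 (median 0.01), with Uhrf1, Tet1 and Dnmt1 at -0.03, -0.02 and 0.01. Imprinted genes were lower for 9 of 20 (median 0.08), with Igf2r, Impact and Plagl1 at -0.05, 0.14 and 0.27. None of the members of these 3 lists had an unadjusted p under 0.05. The olfactory receptor genes, mostly silent in ES cells, had 9 tested members of 1088 listed (median -0.27, but -0.03 without pair 2), led by Olfr613, Olfr374 and Olfr153 at -0.27, -0.44 and 0.10.

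Lists that track signalling and culture state were examined in the same way. ERK feedback and immediate early genes were lower for 10 of 12 (median -0.33, with -0.67, -0.13 and -0.15 without pairs 1, 2 and 3), with Etv5, Etv4 and Spred1 at -0.25, 0.25 and -0.08. Beta-catenin targets divided evenly, 5 of 10 lower (median -0.02, and -0.11 to 0.15 on leaving out a pair), with Axin2, Notum and Cdx1 at 0.02, -0.21 and -0.25. Targets of p53 were lower for 11 of 12 (median -0.22, with -0.20, -0.13 and -0.38 without pairs 1, 2 and 3). In this list 5 were lower in every pair (41.7%, against 12.2% of all genes) and 4 lower ones had an unadjusted p under 0.05 (against 1.85%). Ccng1, Trp53inp1 and Sesn2 stood at -0.11, -0.36 and -0.10. Stress response genes were lower for 9 of 15 (median -0.10, but 0.04 without pair 2), with Asns, Hspa5 and Atf4 at -0.15, 0.27 and 0.15. The metallothionein genes Mt1 and Mt2 stood at 0.24 and 0.38. Etv4, Axin2, Notum and Ccng1 lie on chromosome 11 and stood at 0.10, -0.14, -0.37 and -0.28 with the chromosome offsets.

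RNA composition differed between numbers as well. Mitochondrially encoded genes summed to 34928, 46863 and 25615 CPM in the parent and 27633, 36830 and 26873 CPM after deletion. All 13 had a negative log2 fold change (median -0.17), 2 of them in every pair, with mt-Co1, mt-Nd1 and mt-Co3 at -0.24, -0.10 and -0.30. A further list held genes whose symbol starts with Rpl or Rps and a digit. It takes in kinase genes such as Rps6ka1 and misses ribosomal protein genes such as Rplp1. In this list 67 of 105 tested genes were lower (median -0.02, but 0.03 without pair 1), with Rpl4, Rps2 and Rps3 at -0.02, -0.05 and -0.10. The part of this difference in the results above was not tested.

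Genes around Mta1 had log2 fold changes on both sides of 0. Of 24 listed genes within 500 kilobases 19 were tested, 13 were higher and 6 lower, the median log2 fold change was 0.10 (-0.02 without pair 1) and none had an unadjusted p under 0.05. The nearest downstream genes Crip2 and Crip1, whose products are LIM-domain proteins, lie 3030 and 9110 bases from Mta1 and had log2 fold changes of 0.20 (95% interval -0.41 to 0.80) and 0.54 (-0.16 to 1.24). Tedc1, Pacs2 and Brf1 stood at 0.19, 0.02 and 0.10. Tmem121, 48724 bases away and under 6 CPM in all 6 libraries, stood at 0.63 (-0.02 to 1.28).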

How the data were processed

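The authors deposited raw counts of reads per gene, not normalized, 1 table a library. According to the study's methods, RNA libraries were made with either a NEXTflex directional kit or a SMARTer stranded total RNA kit. Which libraries had which kit is not given there, so the kit may differ between the series compared. Reads were trimmed with Trim Galore, aligned to GRCm38 with TopHat2 and counted with featureCounts on Ensembl genes. How reads that align to several places were counted is not given in the sources used here, which matters for the multicopy genes above. Symbols, exon lengths and sequences came from GENCODE vM21 (GRCm38), which named 21852 of 22018 genes.

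From these counts, edgeR 4.0.16 (R 4.3.3) was run with TMM normalization, filterByExpr and quasi-likelihood F tests on the 6 libraries, with genotype and replicate number as terms; pairing came from the numbers in the sample titles, and all same-numbered deviations correlated above 0.1. Standard errors came from the fitted information and the posterior quasi-dispersion. Log2 CPM used a prior count of 2. The labels do not say which line or culture each number stands for, so p-values measure only the spread between these libraries, which may in part be technical, although the numbers also differ in Y-linked RNA and in whole chromosomes. The alternatives were no block, DESeq2 1.42.0, another scaling, no filter, all 18 single-mutant libraries in 1 fit and leaving out each pair; chromosome medians as offsets were added after seeing the data. Named genes were all MTA, NuRD subunit and Y chromosome genes, the 3 most highly counted of each other list, the 10 genes of smallest p in each direction that reached 1 CPM in the higher group and kept 1 direction in all pairs, the 10 most variable between numbers above 5 CPM, and neighbours of Mta1 within 100 kilobases. Usp17la, Usp17lb, Usp17lc and Hist3h2a were added after their values were seen. The comparison and the gene lists were chosen with earlier results of these data known.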

Additional observations from a re-analysis of the deposited data

How the results depend on the processing

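DESeq2 called 29 genes where edgeR called 0, and put Mta1 at -0.96 with an adjusted p of 2.45e-06; the cause was not tested. Of the further named genes, 15 had an adjusted p under 0.05 in DESeq2 and none in edgeR. All other settings also called 0 genes, no fold threshold included. Genes at an unadjusted p under 0.05 numbered 468, 50 without the replicate block, at which the median half-width of the 95% interval was 0.61, 1058 in the fit of all 18 single-mutant libraries, and 460 to 728 on leaving out a pair. The Mta1, Mta2 and Mta3 differences kept their sign in all 9 alternatives and the block changed no call.

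Of 114 further named genes, 66 kept their sign throughout and 48 did not. In the paired edgeR fit of all pairs none of the 48 had an unadjusted p under 0.05. With the opposite sign, Zfy1 (1.90) and Zfy2 (1.95) had an unadjusted p under 0.05 without replicate 1 and Krt8 (0.83) and Nes (-0.49) without replicate 2, and none of them passed the adjusted threshold. Without the replicate block the sign turned for Hdac2 (0.007), Zfy2 (1.06), Zfy1 (0.93), Col4a1 (-0.27), T (0.016), Nes (-0.056) and Dnmt1 (-1e-04). Without the filter it turned for Hdac2 (0.002), Rbbp7 (0.0014) and Nanog (0.0072), in the 18-library fit for Nanog (0.002), and with chromosome offsets for Hdac2 (0.0014), Rbbp7 (8e-04) and Axin2 (-0.14). On leaving out a pair, the values ran for Acta2 from -0.16 to 0.41, for Asns from -0.31 to 0.040, for Axin2 from -0.12 to 0.14, for Cdh2 from -0.18 to 0.064, for Cdx1 from -0.73 to 0.27, for Chd4 from -0.10 to 0.057, for Chd5 from -0.34 to 0.17, for Col4a1 from -0.56 to 0.38, for Crip2 from -0.13 to 0.48, for Dazl from -0.50 to 0.098, for Dnmt1 from -0.047 to 0.080, for Dnmt3b from -0.31 to 0.42, for Esrrb from -0.14 to 0.043, for Fbn1 from -0.0029 to 0.49, for Gatad2a from -0.036 to 0.0997, for Gatad2b from -0.14 to 0.014. They ran for Gsc from -0.12 to 0.15, for Hdac2 from -0.14 to 0.060, for Igf2r from -0.14 to 0.066, for Il6st from -0.12 to 0.18, for Impact from -0.15 to 0.30, for Krt8 from -1.02 to 0.83, for Lamb1 from -0.42 to 0.15, for Lefty2 from -1.38 to 1.03, for Mbd2 from -0.31 to 0.12, for Mbd3 from -0.052 to 0.21, for Mt1 from -0.019 to 0.39, for Nanog from -0.039 to 0.017, for Nes from -0.49 to 0.34, for Nodal from -0.38 to 0.053, for Notum from -0.67 to 0.16, for Olfr153 from -0.020 to 0.32. They further ran for Pacs2 from -0.086 to 0.13, for Pdgfrb from -0.59 to 0.065, for Rbbp7 from -0.041 to 0.011, for Rpl4 from -0.064 to 0.063, for Rps2 from -0.11 to 4e-04, for Sall1 from -0.098 to 0.056, for Sall4 from -0.23 to 0.0062, for Sgk1 from -0.45 to 0.0052, for T from -1.40 to 0.24, for Tbx6 from -0.18 to 0.19, for Tet1 from -0.051 to 0.025, for Tfap2c from -0.023 to 0.72, for Tfcp2l1 from -0.19 to 0.26, for Uhrf1 from -0.069 to 0.049, for Zfy1 from -0.75 to 1.90, for Zfy2 from -0.49 to 1.95.

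Intervals were widest for genes under 1 CPM, and the parts of counting error and of spread between libraries in them were not separated. With 3 pairs, and pair 1 unlike in Y-linked genes and pair 2 in chromosome 11 genes, small differences could not be measured, and a difference between genotypes cannot be told apart from a difference between the lines used.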
